A study of Mus musculus with 6 samples.

Results

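The growth hormone receptor, STAT5 and IGF1 axis was followed in RNA of whole mouse liver through 9 genes of the 55254 in the table, chosen by symbol. These were the receptor gene *Ghr*, the transducers *Stat5a* and *Stat5b*, the feedback inhibitors *Socs2* and *Cish*, the secreted products *Igf1* and *Igfals*, and the transcriptional repressors *Bcl6* and *Cux2*. All 9 symbols were found, and 8 of them averaged at least 1 TPM over the 6 libraries. TPM is a transcript level corrected for gene length and library total. The libraries came from 3 mice fed for 7 weeks on CDA-HFD, which is high in fat, lacks choline and holds free amino acids in place of protein, and from 3 mice given a normal diet (ND). All were labelled WT and biological replicates. The study's methods describe C57BL/6J mice, male and 6 to 12 weeks old for the CDA-HFD feeding, and do not give the sex or age of the ND mice separately.

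Growth hormone, made in the pituitary, binds its receptor on hepatocytes, where the attached kinase JAK2 phosphorylates STAT5A and STAT5B, which then enter the nucleus and switch on genes. *Igf1* and *Igfals* are the targets that give the liver its endocrine output, while *Socs2* and *Cish* encode inhibitors that dampen the signal and are themselves induced by STAT5. Secretion of growth hormone is more pulsatile in male than in female mice, which sets up the sex-biased expression of many liver genes. BCL6 represses transcription at sites that STAT5 also binds, with more of it in male than in female mouse liver, and CUX2 is a repressor found mainly in female mouse liver.

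Each change is given as the log2 fold change between diets (CDA-HFD over ND, on log2(TPM + 1)) with its standard error (SE), from limma on the 14730 genes that averaged 1 TPM or more. "Rose" and "fell" stand for a gene whose adjusted p was below 0.05 and whose log2 fold change was 1 or more in size. The library totals, in reads recovered from the TPM values, were 16560805 to 18620253 in the CDA-HFD libraries and 13957519 to 15096491 in the ND libraries. The summed TPM of 9 hepatocyte markers was 34159 to 37489 in CDA-HFD and 42334 to 43019 in ND, and 0 of the 9 were called by this rule. The 8 macrophage markers, all of which rose, summed to 4494 to 4925 TPM in CDA-HFD and to 593 to 649 TPM in ND. The 8 markers of stellate cells and myofibroblasts, of which 7 rose, summed to 2332 to 2470 TPM in CDA-HFD and to 338 to 366 TPM in ND. Of 6 Kupffer cell markers 3 fell (*Timd4*, *Cd163* and *Clec4f*). The 6 summed to 454 to 463 TPM in CDA-HFD and 380.3 to 435 TPM in ND. Most of the sum in CDA-HFD was *Cd5l*, at a mean of 291 TPM in CDA-HFD and 176 TPM in ND. The other marker lists summed to 157 to 192 TPM in CDA-HFD and 168 to 179 TPM in ND for endothelium, 1399.9 to 1559.7 TPM in CDA-HFD and 579.7 to 639.9 TPM in ND for plasmacytoid dendritic cells, 28.7 to 35.3 TPM in CDA-HFD and 6.40 to 8.27 TPM in ND for T cells, and 11.9 to 14.3 TPM in CDA-HFD and 4.14 to 5.99 TPM in ND for B cells. None of these markers was at 0 in all libraries of a diet. In the plasmacytoid list, of which 4 of 6 rose, *Bst2* averaged 644 TPM in CDA-HFD and 599 TPM in ND and was not called. The higher sum in CDA-HFD was mostly *Ly6d*, at a mean of 771 TPM in CDA-HFD and 4.92 TPM in ND. *Siglech* averaged 5.22 TPM in CDA-HFD and 0.529 TPM in ND. In bulk tissue, fewer cells of a type and less RNA per cell cannot be told apart.

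Of the 8 axis genes tested, 2 fell and 0 rose, while of all genes tested 24.9% were called, 3.79% as lower and 21.1% as higher in CDA-HFD. Another 3 axis genes, *Igf1*, *Stat5b* and *Stat5a*, had an adjusted p below 0.05 in limma with a smaller fold change, which on its own was met by 66% of all genes (14.4% lower and 51.6% higher). Over all genes the log2 fold change had a median of 0.32. Rises made up 84.8% of all calls on TPM as deposited, 69.0% after median-of-ratios scaling and 62.0% after quantile normalization.

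*Ghr* encodes the receptor through which hepatocytes sense growth hormone (chr15:3317760-3583492, minus strand, GRCm38). *Ghr* was at 148, 134 and 131 TPM in the 3 CDA-HFD libraries, against 478, 455 and 464 TPM in the 3 ND libraries. The 2 diets did not overlap, and the mean in CDA-HFD was 29.5% of that in ND (138 ± 9.31 TPM in CDA-HFD and 466 ± 11.6 TPM in ND, SD, n = 3 each). *Ghr* therefore fell, with a log2 fold change of -1.75 ± 0.06 (SE, 95% interval -1.90 to -1.61, limma, adjusted p = 2.19e-07). Relative to the median of all genes the difference was -2.07. When each library was scaled to its hepatocyte markers, the log2 fold change of *Ghr* was -1.39 ± 0.09, a fall by the same rule, which 2.29% of all genes met on that scale (32% rose). *Ghr* was called lower under all 20 alternatives tried.

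**Figure D1:**
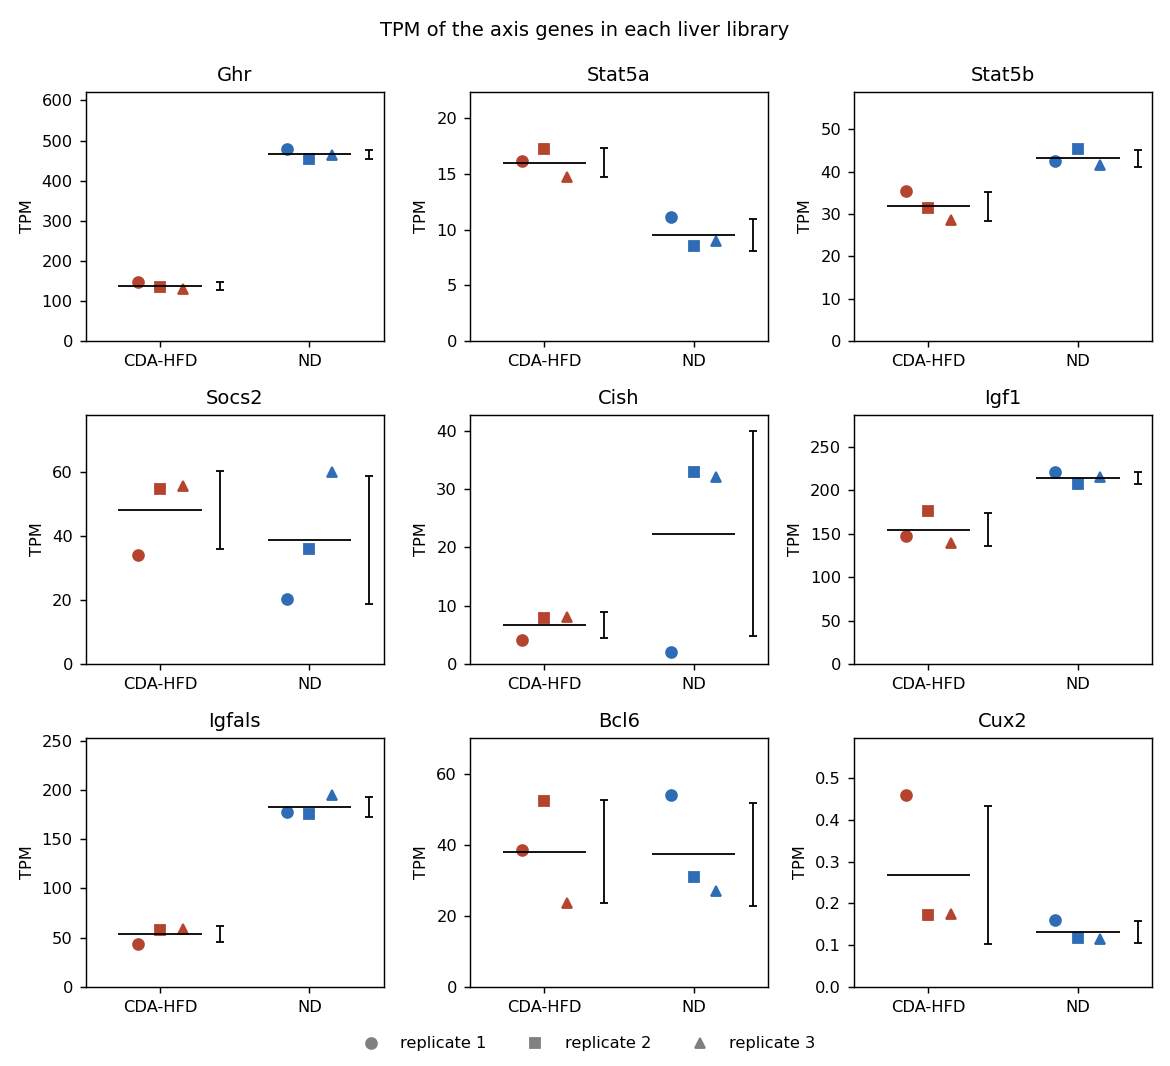
TPM of the 9 axis genes in each library (vertical axes, from 0), CDA-HFD left and ND right, with symbols for replicates 1 to 3, a horizontal line at the mean and a bar of 1 SD (n = 3). The diets are apart for *Ghr*, *Igfals*, *Igf1*, *Stat5a*, *Stat5b* and, on few reads, *Cux2*, as they were for 71% of all genes tested. *Cish* in ND splits into 1 library at 2.04 TPM and 2 libraries above 32 TPM.

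The fold changes of the transducers were of opposite sign. *Stat5b*, the more abundant STAT5 gene of the liver (chr11:100780731-100850724, minus strand), was at 35.5, 31.3 and 28.6 TPM in CDA-HFD, against 42.5, 45.3 and 41.5 TPM in ND. Its neighbour *Stat5a* (chr11:100859351-100885169, plus strand) was at 16.2, 17.2 and 14.7 TPM in CDA-HFD, against 11.2, 8.50 and 8.96 TPM in ND. Every CDA-HFD library was thus below every ND library for *Stat5b* and above every ND library for *Stat5a*. Groups that do not overlap were common in this comparison, at 71% of all genes, 16.1% lower and 54.9% higher in CDA-HFD.

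The log2 fold change of *Stat5b* was -0.43 ± 0.09 (SE, 95% interval -0.64 to -0.22, limma, adjusted p = 0.00343) and that of *Stat5a* was 0.70 ± 0.12 (SE, 95% interval 0.42 to 0.97, limma, adjusted p = 0.0011). Neither reached the fold limit. Both values moved with the scaling: *Stat5b* stood at -0.07 ± 0.11 against the hepatocyte markers (limma, adjusted p = 0.557) and at -0.82 after median-of-ratios scaling. *Stat5a* stood at 1.06 ± 0.11 against the hepatocyte markers, which met the rule for a rise (limma, adjusted p = 1.49e-05), and at 0.15 after quantile normalization (limma, adjusted p = 0.238). That call against the hepatocyte markers was lost without ND replicate 2.

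The sum of the 2 STAT5 genes differed less between diets than their proportion, 2 quantities computed after the values of both genes were seen. The summed level was 51.7, 48.5 and 43.3 TPM in CDA-HFD, against 53.7, 53.8 and 50.5 TPM in ND, so that the diets overlapped. *Stat5a* made up 31.3%, 35.5% and 34.0% of that sum in CDA-HFD, against 20.8%, 15.8% and 17.8% in ND, with no overlap. The log2 ratio of *Stat5a* over *Stat5b*, which no scaling of a whole library can change apart from the added 1 TPM, was -0.94 ± 0.13 in CDA-HFD and -2.07 ± 0.22 in ND (SD, n = 3 each), a difference of 1.13. The exact permutation test gave p = 0.1, the smallest p that 3 against 3 libraries allow (two-sided, adjusted p = 0.1 over the 3 ratios tested).

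The 2 STAT5 genes are close copies. Of the windows of 75 bases in their annotated transcripts, 387 were common to both. This was 5.12% of the windows of *Stat5a* and 6.99% of those of *Stat5b*. The length is that of the single-end reads in the study's methods, which do not give it for whole liver. *Stat5a* also shares 72 exon bases with *Stat3* on the other strand, and whether counting used the strand is not stated. How reads from these stretches were counted is not given in the sources used here.

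**Figure D2:**
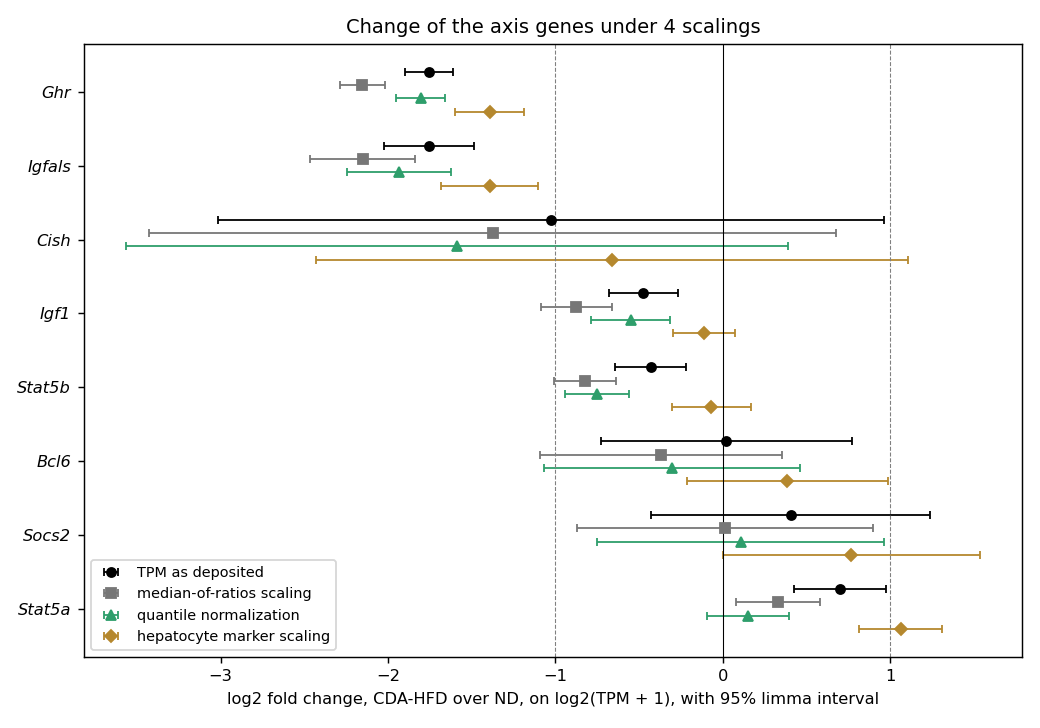
Log2 fold change of CDA-HFD over ND for the 8 tested axis genes (horizontal axis, limma on log2(TPM + 1), bars are 95% intervals) on TPM as deposited and under 3 other scalings, with dashed lines at the fold limit of 1. *Ghr* and *Igfals* stay beyond -1 under all 4, while *Igf1*, *Stat5b*, *Stat5a* and *Socs2* shift towards or away from 0 with the scaling.

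STAT5 binds DNA as a dimer at sites with the letters TTCNNNGAA. To show where such letters lie in the axis itself, this motif was searched in windows of 300 bases, from 250 before to 50 after each RefSeq gene start (GRCm38.p6). The pattern reads the same on both strands and was not combined with any other motif. Windows were found for 8 of the 9 genes, with none for *Socs2*. The motif was present in 3 of these 8 genes (*Cish*, *Igfals* and *Bcl6*), in 5 of their 15 windows in all, and in 8.3% of the 32851 windows of all genes. *Ghr*, *Igf1*, *Stat5a*, *Stat5b* and *Cux2* had no match in these windows. A match describes letters and is not evidence of binding. One window each is printed 5′ to 3′ on the gene's strand, with the matches in capitals: *Cish* at chr9:107296409-107296708 (plus), *Igfals* at chr17:24877981-24878280 (plus) and *Bcl6* at chr16:23981234-23981533 (minus).
*Cish*: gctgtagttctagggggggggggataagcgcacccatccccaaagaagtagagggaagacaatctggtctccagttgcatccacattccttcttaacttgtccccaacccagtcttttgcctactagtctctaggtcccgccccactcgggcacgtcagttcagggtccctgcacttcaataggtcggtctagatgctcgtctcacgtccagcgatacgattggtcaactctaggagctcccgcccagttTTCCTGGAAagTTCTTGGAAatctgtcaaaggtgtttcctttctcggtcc
*Igfals*: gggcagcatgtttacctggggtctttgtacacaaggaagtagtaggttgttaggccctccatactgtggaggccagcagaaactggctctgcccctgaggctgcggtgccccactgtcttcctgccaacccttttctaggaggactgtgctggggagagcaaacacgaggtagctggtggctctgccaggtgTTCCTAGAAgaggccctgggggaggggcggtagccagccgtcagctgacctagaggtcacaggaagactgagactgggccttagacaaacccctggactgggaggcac
*Bcl6*: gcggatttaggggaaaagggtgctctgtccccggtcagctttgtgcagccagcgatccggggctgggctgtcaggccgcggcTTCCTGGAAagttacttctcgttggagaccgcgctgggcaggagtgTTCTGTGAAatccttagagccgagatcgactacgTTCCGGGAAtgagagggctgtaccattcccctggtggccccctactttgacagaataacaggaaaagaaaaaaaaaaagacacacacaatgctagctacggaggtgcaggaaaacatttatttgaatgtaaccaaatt

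In *Cish*, 2 matches, TTCCTGGAA and TTCTTGGAA, began at bases 1 and 12 after the gene start, and only 0.457% of all windows held 2 or more. In *Bcl6*, 3 matches (TTCCTGGAA, TTCTGTGAA and TTCCGGGAA) began 168, 122 and 88 bases before the start printed here. That start lies inside the annotated span of the gene, and the *Bcl6* window at the 5′ end of the span held 1 match. In *Igfals*, TTCCTAGAA began 58 bases before the start printed here, and an alternative start held TTCTCAGAA. Both *Igfals* starts also lie inside the annotated span of the gene. Of these 3 genes *Igfals* fell, while *Cish* and *Bcl6* were not called.

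*Cish* encodes an inhibitor that binds activated cytokine receptors and is among the genes that STAT5 induces fastest (chr9:107296026-107302784, plus strand). Its levels were 4.04, 7.93 and 7.98 TPM in CDA-HFD, against 2.04, 32.9 and 32.1 TPM in ND. The reads behind them numbered 110, 205 and 240 in CDA-HFD, against 46, 800 and 791 in ND. ND replicate 1 was thus below all CDA-HFD libraries, while the other 2 ND libraries were above all of them.

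The log2 fold change of *Cish* was -1.03 ± 0.86 (SE, 95% interval -3.01 to 0.96, limma, adjusted p = 0.318), so no change was called. Without ND replicate 1 it was -2.18 ± 0.25 (limma, adjusted p = 0.000273) and met the rule for a fall. Within ND, *Cish* spanned 16.1-fold from its lowest to its highest library, and its SD on the log2 scale was above that of 99.95% of all genes tested. The gap on log2(TPM + 1) between ND replicate 1 and the mean of the other ND libraries, -3.46, was the lowest of all 14730 genes. In exons, 582 bases of *Cish* are shared with genes on the other strand.

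ND replicate 1 did not stand apart over the transcriptome to a like degree. The share of genes more than 1 log2 unit from both other libraries of the diet was 0.801% in ND replicate 1, against 0.441% to 0.638% in the other 5 libraries, and *Cish* was the only axis gene among them. After *Cish*, the lowest gaps in that library were those of *Mup10* at -3.20, *Chac1* at -2.67, *Foxq1* at -2.51 and *Onecut1* at -2.50. *Onecut1* encodes HNF6, a liver transcription factor induced by growth hormone in rat liver, and is described with the pathway genes. No reason for the low *Cish* of this library was tested.

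*Socs2* encodes the inhibitor that acts as the main brake on growth hormone signalling in mice (chr10:95385362-95417180, minus strand). Its levels were 34.1, 54.6 and 55.6 TPM in CDA-HFD, against 20.2, 36.1 and 59.9 TPM in ND. The lowest library was again ND replicate 1, but the highest was ND replicate 3, and the diets overlapped. The log2 fold change was 0.40 ± 0.36 (SE, 95% interval -0.43 to 1.24, limma, adjusted p = 0.349). The alternatives ran between 0.01 and 0.78 with no call. The interval holds both no change and a rise past the fold limit. The within-ND SD of *Socs2* on the log2 scale was above that of 98.5% of all genes.

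Against its receptor, *Socs2* stood higher in every CDA-HFD library. The log2 ratio of *Socs2* over *Ghr* was -2.09, -1.28 and -1.22 in CDA-HFD, against -4.50, -3.62 and -2.93 in ND. The means were -1.53 ± 0.48 in CDA-HFD and -3.69 ± 0.79 in ND (SD, n = 3 each), a difference of 2.16 (exact permutation test, two-sided p = 0.1, the smallest possible, adjusted p = 0.1 over 3 ratios). The log2 fold change of *Ghr*, the denominator, was -1.75 alone.

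*Igf1* encodes insulin-like growth factor 1, the hormone through which growth hormone acts on growth, of which the liver is the main source in blood (chr10:87858265-87937042, plus strand). *Igf1* was at 148, 176 and 140 TPM in CDA-HFD, against 221, 207 and 215 TPM in ND. All CDA-HFD libraries were lower, and the mean was 72.1% of that in ND (155 ± 19.2 TPM in CDA-HFD and 215 ± 6.82 TPM in ND, SD, n = 3 each). The log2 fold change was -0.48 ± 0.09 (SE, 95% interval -0.68 to -0.27, limma, adjusted p = 0.00184), short of the fold limit. Against the hepatocyte markers it was -0.11 ± 0.08 (limma, adjusted p = 0.232), and after median-of-ratios scaling it was -0.87. Macrophages also express *Igf1*, and the part of the higher macrophage markers in its level was not tested.

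*Igfals* encodes the acid-labile subunit, the hepatocyte protein that holds IGF1 in a long-lived complex with IGFBP3 in blood (chr17:24865997-24882010, plus strand). *Igfals* was at 44.0, 58.1 and 59.2 TPM in CDA-HFD, against 177, 176 and 195 TPM in ND. The mean in CDA-HFD was 29.4% of that in ND (53.8 ± 8.47 TPM in CDA-HFD and 183 ± 10.5 TPM in ND, SD, n = 3 each). *Igfals* therefore fell, with a log2 fold change of -1.76 ± 0.12 (SE, 95% interval -2.02 to -1.49, limma, adjusted p = 5.18e-06). Like *Ghr*, it was called lower under all 20 alternatives, with log2 fold changes between -2.15 and -1.39.

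*Igf1* was also set against its upstream receptor within each library. The log2 ratio of *Igf1* over *Ghr* was 0.00, 0.40 and 0.10 in CDA-HFD, against -1.11, -1.13 and -1.11 in ND. The means were 0.16 ± 0.21 in CDA-HFD and -1.12 ± 0.01 in ND (SD, n = 3 each), a difference of 1.28 (exact permutation test, two-sided p = 0.1, the smallest possible, adjusted p = 0.1 over 3 ratios). In all 3 ND libraries *Ghr* exceeded *Igf1* in TPM, while in CDA-HFD *Igf1* was above *Ghr* in 2 libraries and level with it in the other.

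**Figure D3:**
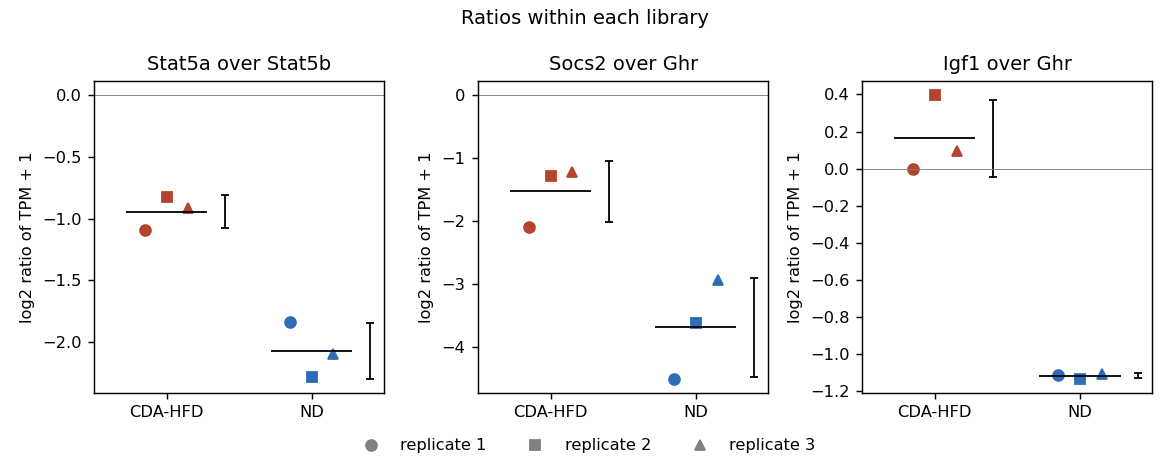
Log2 ratio of TPM + 1 within each library (vertical axes) for *Stat5a* over *Stat5b*, *Socs2* over *Ghr* and *Igf1* over *Ghr*, CDA-HFD left and ND right, with symbols for replicates, a line at the mean and a bar of 1 SD (n = 3). The 3 CDA-HFD libraries lie above the 3 ND libraries in each panel, by 1.13, 2.16 and 1.28 on average.

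*Bcl6* encodes a zinc finger repressor whose expression in mouse liver is higher in males and lowered by continuous growth hormone (chr16:23965052-23988852, minus strand). Its levels were 38.5, 52.4 and 23.5 TPM in CDA-HFD, against 54.0, 31.0 and 27.1 TPM in ND. The diets overlapped over nearly their whole ranges, and the log2 fold change was 0.02 ± 0.32 (SE, 95% interval -0.73 to 0.77, limma, adjusted p = 0.957). Its sign turned in 8 of the 20 alternatives, which leaves no direction for *Bcl6*. The within-ND SD was above that of 96.5% of all genes, so that *Cish*, *Socs2* and *Bcl6* all varied far more between ND livers than *Ghr* (9.23%) or *Igf1* (14.0%). The spread was also wide in CDA-HFD, at 96.7% for *Cish*, 94.8% for *Socs2* and 97.9% for *Bcl6*. There *Ghr* was at 38.4% and *Igf1* at 71.5%.

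*Cux2* encodes a homeobox repressor that is female-specific in adult mouse liver (chr5:121856366-122050102, minus strand). It was near the limit of detection, with 31, 11 and 13 reads in CDA-HFD, against 9, 7 and 7 reads in ND. These were 0.459, 0.172 and 0.174 TPM in CDA-HFD, against 0.161, 0.116 and 0.115 TPM in ND, too low for the filter, and *Cux2* was left out of the test. The ratio of pooled reads, scaled by the reads that 1 TPM stands for in each library, was 2.05 (exact 95% interval 1.24 to 3.50, for counting error only). Every CDA-HFD library was above every ND library in TPM. Without CDA-HFD replicate 1 the ratio was 1.33 (0.721 to 2.47), an interval that holds no difference, so that the size of the difference rested on this library.

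The order of the levels per gene length differed between the diets at its top. In CDA-HFD, *Igf1* and *Ghr* overlapped as the 2 highest, followed by *Igfals*, *Socs2*, *Bcl6* and *Stat5b*, each of which overlapped with the next, and then by *Stat5a*, *Cish* and *Cux2*. In ND, *Ghr* was highest, above *Igf1* and *Igfals* without overlap. *Stat5b*, *Socs2*, *Bcl6*, *Cish* and *Stat5a* followed in ND, each overlapping with the next, and *Cux2* was last.

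The genes whose profiles over the 6 libraries lay nearest to 3 of the axis genes were found among 10111 tested genes that averaged 5 TPM or more, by the root mean square (RMS) difference of centred log2(TPM + 1). Nearest to *Ghr* were *BC024386* (RMS 0.0414), *Cadm4* (RMS 0.0605) and *Amdhd1* (RMS 0.0651). *BC024386* was at 91.4, 78.8 and 75.8 TPM in CDA-HFD, against 303, 281 and 286 TPM in ND, the same order of libraries within each diet as for *Ghr*. Among the nearest to *Igf1* were *Mb21d2* (RMS 0.0364) and *Crp* (RMS 0.0515), the gene of C-reactive protein. The nearest to *Socs2*, *Depp1* (RMS 0.236), *Sarnp* (RMS 0.256) and *Rps12* (RMS 0.267), were further off.

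Of 17 other genes of growth hormone signalling, 14 were tested, of which 4 rose and 1 fell, with a median log2 fold change of 0.27, against 0.32 over all genes, of which 21.1% rose and 3.79% fell. These counts are near that background and are no result about the list. *Gh* and *Prl*, the pituitary hormone genes, were at 0 in all 6 libraries. *Prlr*, the prolactin receptor, which also signals through JAK2 and STAT5, was at 12.3, 12.2 and 11.3 TPM in CDA-HFD, against 33.7, 39.0 and 30.7 TPM in ND. *Prlr* fell, with a log2 fold change of -1.45 ± 0.10 (SE, limma, adjusted p = 6.84e-06), as *Ghr* did. *Jak2*, the kinase of both receptors, was at 23.4 ± 2.78 TPM in CDA-HFD and 16.2 ± 0.325 TPM in ND, a log2 fold change of 0.50 ± 0.10 that was short of the fold limit. *Stat3*, a transducer used mainly by cytokines of the IL-6 family, showed a log2 fold change of 0.19 ± 0.11 (limma, adjusted p = 0.177), with the opposite sign (-0.21) after median-of-ratios scaling.

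Single genes of this list are given with their own tests. *Socs3*, the inhibitor induced by IL-6 type cytokines, was at 15.8, 26.0 and 19.1 TPM in CDA-HFD, against 4.44, 6.58 and 5.11 TPM in ND, and rose by 1.73 ± 0.19 on the log2 scale (SE, limma, adjusted p = 9.93e-05). *Ptpn6*, the phosphatase SHP-1, which is most abundant in blood cells, rose by 1.48 ± 0.06. *Socs1* was below the filter, at 1.38, 1.21 and 1.00 TPM in CDA-HFD, against 0.446, 0.361 and 0.509 TPM in ND. Among the inhibitors, *Socs3* and *Socs1* were therefore apart between the diets while *Socs2* and *Cish* overlapped. *Socs1* was not tested and had only 7 to 30 reads per library. Of all genes tested, 54.9% were higher in CDA-HFD without overlap, so this is no result about the inhibitors. The macrophage markers were higher beside these genes, and their part in *Ptpn6* and *Socs3* was not tested.

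*Onecut1* was the gene of this list with the widest error, and it was picked out after its values were seen. Its levels were 7.41, 6.77 and 4.05 TPM in CDA-HFD, against 5.53, 38.7 and 33.4 TPM in ND. ND replicate 1 lay within the range of the CDA-HFD libraries, and the other 2 ND libraries were above them. The log2 fold change was -1.58 ± 0.63 (SE, limma, adjusted p = 0.0545), and without ND replicate 1 it was -2.42, a called fall (limma, adjusted p = 8.37e-05).

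Of 17 IGF ligands, receptors and binding proteins, 13 were tested, of which 9 rose and 0 fell on TPM as deposited, with a median log2 fold change of 1.27, against 5 rises after median-of-ratios scaling and 5 rises with 1 fall after quantile normalization. Over all genes 21.1% rose on TPM as deposited, with a median of 0.32. Of all 14730 genes, 2300 rose after median-of-ratios scaling and 1852 after quantile normalization. *Igf1r* and *Stc2* averaged below 1 TPM in ND and passed the filter through CDA-HFD. With no filter 9 of all 17 genes rose, with a median of 1.02, against 3301 of 27155 over all genes, with a median of 0.15. *Igfbp1*, whose liver-made product binds IGF1 and is repressed by insulin, was at 851, 547 and 744 TPM in CDA-HFD, against 44.4, 123 and 132 TPM in ND. *Igfbp1* rose by 2.95 ± 0.39 on the log2 scale (SE, limma, adjusted p = 0.000266), the largest rise of this list. *Igfbp2*, the most abundant binding protein gene in these livers by TPM, was at 1914 ± 156 TPM in CDA-HFD and 743 ± 41.6 TPM in ND, a rise of 1.36 ± 0.07. *Igfbp3*, the partner of the acid-labile subunit, was at 55.9 ± 1.73 TPM in CDA-HFD and 22.4 ± 0.555 TPM in ND, a rise of 1.28 ± 0.06. After median-of-ratios scaling these 2 log2 fold changes were 0.96 and 0.89, just under the fold limit, with no change of direction.

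In the complex that carries IGF1 in blood, the 3 genes had different calls: *Igfals* fell, *Igf1* was lower by less than the fold limit, and *Igfbp3* rose on TPM as deposited. In mouse and rat liver *Igfbp3* is made mainly by cells other than hepatocytes. *Igfbp7*, a secreted protein of vessel and stromal cells with low affinity for IGF1, was at 846 ± 24.3 TPM in CDA-HFD and 157 ± 4.48 TPM in ND, a rise of 2.42 ± 0.05. *Igf1r*, the receptor for IGF1, which adult hepatocytes hardly express, was at 4.16 ± 0.361 TPM in CDA-HFD and 0.623 ± 0.122 TPM in ND, a rise of 1.67 ± 0.13. *Irs2*, an adaptor of the insulin and IGF1 receptors, rose by 1.64 ± 0.11. *Igf2*, *Pappa*, *Pappa2* and *Stc1* were below the filter. The stellate and macrophage markers were higher in the same libraries, and their part in these rises was not tested.

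**Figure D4:**
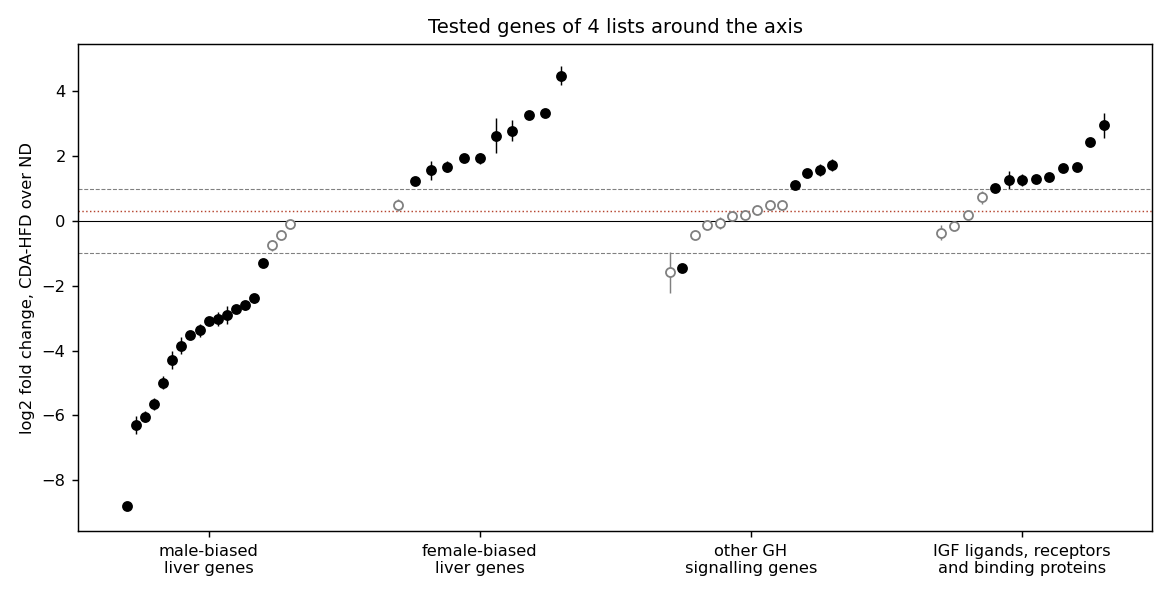
Log2 fold change of CDA-HFD over ND (vertical axis; points are genes with SE bars, ordered by value) for the tested genes of 4 lists around the axis, filled where called and open where not, with dashed lines at the fold limit and a dotted line at the median of all genes, 0.32. Of the tested genes, 16 of 19 male-biased genes fell, 10 of 11 female-biased genes rose, and the other lists hold 4 and 9 rises.

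Male-biased genes of mouse liver depend on the male pattern of growth hormone and on STAT5B. Of 19 such genes, all tested, 16 fell and 0 rose, with a median log2 fold change of -3.10, against 3.79% lower and a median of 0.32 over all genes. The largest falls were those of *Hsd3b5*, a steroid dehydrogenase gene, at -8.80 ± 0.10, *Mup1*, of the major urinary proteins, at -6.29 ± 0.28, and *Elovl3*, a fatty acid elongase gene, at -6.04 ± 0.17 on the log2 scale. *Hsd3b5* had 3, 3 and 4 reads in CDA-HFD, at a mean of 0.282 TPM, against 573 TPM in ND. It passed the filter through ND, and the size of its fold change depends on the added 1 TPM. *Egfr* at -0.75, *C6* at -0.44 and *Mup20* at -0.09 were not called. This list and the female-biased list below were chosen with earlier results of these data known. The cause of the changes in these lists was not tested. The *Mup* genes, the *Cyp4a12* pair and *Serpina1e* have near-identical copies, and how shared reads were divided among them is not given in the sources used here.

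Of 20 female-biased genes, 9 were below the filter, and of the 11 tested 10 rose and 0 fell, with a median log2 fold change of 1.94. In the main test 21.1% of all genes rose. Of the 11 tested genes, 1 averaged below 1 TPM in ND and passed the filter through CDA-HFD. With no filter 11 of all 20 rose and 0 fell, with a median of 1.32. Over all genes with no filter, 3301 of 27155 rose, with a median of 0.15. *Cyp17a1*, a steroid hydroxylase gene, was at 124, 97.8 and 114 TPM in CDA-HFD, against 2.95, 7.56 and 2.76 TPM in ND, a rise of 4.49 ± 0.29. *Acot3*, a peroxisomal thioesterase gene, rose by 3.33 ± 0.13. The female-specific repressor gene *Cux2* had few reads beside them, as given above. Of the 9 genes under a mean of 1 TPM, *Sult2a1* was at 2.10, 1.52 and 1.78 TPM in CDA-HFD, against 0, 0 and 0.145 TPM in ND, and *Cyp2b13* at 1.79, 0.301 and 0.712 TPM in CDA-HFD, against 0.0864, 0.240 and 0 TPM in ND. The other 7 were at most at 1.01 TPM in any library. The counts of calls in both sex-biased lists moved by less than 1.5 times under all 20 alternatives.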

How the data were processed

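RNA of whole liver from 3 CDA-HFD and 3 ND mice was sequenced, and the authors deposited TPM per gene for each library. Libraries were assigned to diets by their labels, whose extraction text speaks of sorted cells although the source is liver. The submitters' processing notes list Trimmomatic 0.39.0, HISAT2 2.2.1 and featureCounts 2.0.1, with the build GRCm38 (mm10). The methods of the study describe single-end reads for RNA of sorted cells, paired-end reads for low-input sorted macrophages, and removal of duplicates. Which of these steps applied to the whole liver libraries is not stated there. The annotation release and strand setting are not given in the sources used here. TPM is a share of a library, so a rise of abundant transcripts lowers all others.

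Gene positions (counted from 1) and merged exon lengths came from the GENCODE vM21 basic annotation of the same build, which matched 53149 of the 55254 genes. TPM times exon length fell on whole multiples of 1 step per library for 98.4% of values (within 0.01 reads), which gave the reads. Counting intervals are exact at 95% and cover counting error only.

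Diets were compared with limma 3.58.1 (R 4.3.3) on log2(TPM + 1), eBayes with trend, two-sided, with Benjamini-Hochberg adjustment over 14730 genes. The chi-square between replicates was 10.5 to 13.1 per gene, more than sampling of reads gives. Ratios within a library were tested by exact permutation in R. The counting intervals of *Cux2* were computed with scipy 1.17.1. The fit was tested on simulated data. Alternatives were pseudocounts of 0.1 and 0.5, no filter or a minimum of 5 TPM, quantile normalization, scaling by median of ratios, TPM without the 50 most abundant genes, scaling to hepatocyte markers, other eBayes settings, a replicate block, leaving out each library, no fold limit, an adjusted p below 0.01, and voom on recovered reads.

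Members and lists were chosen with earlier results of these data known. By rule, the text names all 9 members, the 3 largest rises and falls that average 5 TPM or more in the higher diet, from each pathway or sex-biased list, and *Jak2*, *Stat3*, *Socs1*, *Socs3*, *Prlr*, *Igf1r*, *Igfbp1*, *Igfbp2* and *Igfbp3* whatever they did. *Onecut1*, the genes lowest in ND replicate 1, and uncalled or unfiltered list members were named after their values were seen. Some genes that the rule takes up are not reported here.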

Additional observations from a re-analysis of the deposited data

How the results depend on the processing

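*Ghr* and *Igfals* were called lower under all 20 alternatives, and the directions of *Igf1*, *Stat5b*, *Stat5a*, *Socs2* and *Cish* held under all of them. *Bcl6*, 0.02 on TPM as deposited, reversed to -0.37 after median-of-ratios scaling, -0.31 after quantile normalization, -0.059 without the 50 most abundant genes, -0.026 with voom, and between -0.24 and 0.32 when each library was left out. *Stat3* reversed to -0.21 after median-of-ratios scaling. The cause was not tested. Over all genes, 3115 rose and 558 fell. A minimum of 5 TPM gave 1914 rises, quantile normalization 1852 rises and 1135 falls, median-of-ratios scaling 1033 falls, hepatocyte marker scaling 4715 rises and 338 falls, and no fold limit 7604 rises and 2117 falls. Axis genes gave 1 rise with hepatocyte marker scaling (*Stat5a*), and 4 falls and 1 rise with no fold limit. Against hepatocyte markers, leaving out libraries gave 0 to 2 rises of axis genes, 0 without ND replicate 2 and 2 without ND replicate 3. Of the other signalling genes, 7 rose with no fold limit, and 2 fell under a minimum of 5 TPM, median-of-ratios, quantile, no top 50 genes, voom and no fold limit, and 1 to 2 without single libraries (2 without ND replicate 1). Of the IGF genes, 5 rose under median-of-ratios and 5 under quantile, where 1 fell. Hepatocyte markers gave 1 rise and 6 falls with no fold limit, 2 falls under median-of-ratios, and 0 to 1 falls without single libraries (1 without CDA-HFD replicate 2). Kupffer cell markers gave 0 rises on TPM as deposited, 1 with hepatocyte marker scaling and 2 with no fold limit. B cell markers gave 2 rises on TPM as deposited and 0 under a minimum of 5 TPM, median-of-ratios and quantile. T cell markers gave 5 rises, and 1 under a minimum of 5 TPM and under quantile. Plasmacytoid dendritic cell markers gave 4 rises, and 2 under a minimum of 5 TPM. Endothelial markers gave 1 fall, 0 with hepatocyte marker scaling, 3 with no fold limit, and 0 to 1 without single libraries (0 without CDA-HFD replicate 2).

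Replicate numbers were not shown to pair the libraries, with correlations of deviations of 0.09, 0.04 and 0.09 between same-numbered libraries, although each correlated best with its own number. With replicate number as a block, 3128 genes rose and 559 fell, and 2 axis genes fell. With 3 libraries a diet, an interval such as that of *Socs2* spans both no change and a rise past the fold limit, and the ratios cannot reach p under 0.1.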
